A study of Mus musculus with 6 samples.

Results

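The 100 stretches of the mouse genome with the most accessible regions per 100 kb were examined in an osteoblast line with and without Fam20c. The peaks of 6 libraries were merged into 79259 regions on 18 chromosomes, and a region was called shared where f/f replicates 1, 2 and 3 and KO replicates 1 and 2 all had a peak. Chromosomes 1 to 19 without 15 were cut into fixed bins of 100 kb, shared regions were counted by their start, and the 100 bins with the highest counts were taken, with ties broken by chromosome and start. These bins held 1785 of the 79259 regions and 1344 of the 42712 shared regions. The choice used the peaks of those 5 libraries, so every count of shared regions is a description, and KO replicate 3 is the library that the choice did not use.

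The data are ATAC-seq peak lists, 1 for each library. OB Fam20c f/f is an immortalized mouse osteoblast line with loxP-flanked Fam20c alleles, and OB Fam20c KO is that line after infection with a lentivirus that carries Cre recombinase, which cuts out DNA between loxP sites. Fam20c encodes the kinase of the secretory pathway that phosphorylates many proteins of bone and tooth matrix. Each group had 3 libraries of 50000 nuclei, treated with Tn5 for 30 min at 37 °C. Both groups are 1 line, and separate cultures are not stated in the sources used here, so the SDs measure the spread between libraries, which may be technical.

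ATAC-seq marks DNA that the Tn5 transposase can reach, which is mostly promoters, enhancers and insulators where nucleosomes are displaced. Such elements are uneven along a chromosome. They crowd where many short, active genes lie side by side, as in histone gene clusters, and around single regulated genes with many enhancers, as at collagen genes in osteoblasts. A peak at one element does not say which gene it serves.

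Before the results, some facts of the libraries bear on them. The lists held 62781 to 74797 peaks in 5 libraries and 32958 in KO replicate 3, whose list was the shortest, and the number of reads behind them is not part of the lists. Of the osteoblast markers, Runx2 and Spp1 had a peak over a start site in 6 of 6 libraries and Alpl in 5, while no region lay at Bglap or Ibsp. A shared region also lay at genes of other cell types (blood 2 of 4, endothelial 3 of 3, epithelial 1 of 2, neuronal 3 of 3, muscle 3 of 3, fat 3 of 3, cartilage 2 of 2), so a region near a gene does not separate cell types. Of the 3 regions at Fam20c, f/f replicates 1 to 3 had a peak in 2, 1 and 2 and KO replicates 1 to 3 in 2, 1 and 1, and peaks of this kind cannot check the deletion. Only Col1a1 of the marker genes lay in the 100 bins.

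As examples of the sequence under these regions, 8 promoters from the densest bins are shown. In the 10 densest bins, 32 genes had a RefSeq promoter window that lay whole inside a shared region, and in 16 of these the 150 bases before the start site were outside every annotated gene span. Shown are the 8 of the 16 with the most matches to 6 short motifs, 5′ to 3′ on the strand of the gene, from RefSeq in build GRCm38.p6, whose coordinates are those of mm10. Capitals mark matches on either strand to the GC box (GGGCGG) or the CCAAT box (CCAAT), and no match to the other 4 motifs fell in these 150 bases. Borcs6 lies on the plus strand at chr11:69059625-69059774, H2ac7 on the plus strand at chr13:23574231-23574380, H2bc7 on the minus strand at chr13:23574208-23574357 and Yif1a on the plus strand at chr19:5088388-5088537. H3c6 lies on the minus strand at chr13:23562386-23562535, Cnih2 on the minus strand at chr19:5098522-5098671, Dnase2a on the plus strand at chr8:84908605-84908754 and Irf2bpl on the minus strand at chr12:86884815-86884964. H2ac7 and H2bc7 are transcribed away from each other, so their sequences overlap as reverse complements and share 1 region.
Borcs6: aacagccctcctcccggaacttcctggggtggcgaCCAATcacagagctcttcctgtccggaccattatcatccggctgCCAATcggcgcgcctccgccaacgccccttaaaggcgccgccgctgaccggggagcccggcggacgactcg
H2ac7: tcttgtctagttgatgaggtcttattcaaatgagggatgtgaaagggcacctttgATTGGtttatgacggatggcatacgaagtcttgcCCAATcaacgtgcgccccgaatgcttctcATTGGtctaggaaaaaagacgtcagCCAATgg
H2bc7: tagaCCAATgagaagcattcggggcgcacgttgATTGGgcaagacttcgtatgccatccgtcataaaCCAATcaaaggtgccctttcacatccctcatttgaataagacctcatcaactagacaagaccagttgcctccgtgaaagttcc
Yif1a: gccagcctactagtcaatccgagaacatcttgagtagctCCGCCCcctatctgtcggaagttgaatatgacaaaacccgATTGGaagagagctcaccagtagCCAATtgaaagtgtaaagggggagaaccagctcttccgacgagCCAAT
H3c6: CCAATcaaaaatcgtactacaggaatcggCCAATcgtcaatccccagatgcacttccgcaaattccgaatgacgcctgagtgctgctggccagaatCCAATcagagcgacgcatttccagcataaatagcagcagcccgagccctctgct
Cnih2: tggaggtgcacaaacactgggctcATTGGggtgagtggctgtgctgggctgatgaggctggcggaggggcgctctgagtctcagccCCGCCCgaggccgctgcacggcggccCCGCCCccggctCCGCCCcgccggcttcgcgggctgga
Dnase2a: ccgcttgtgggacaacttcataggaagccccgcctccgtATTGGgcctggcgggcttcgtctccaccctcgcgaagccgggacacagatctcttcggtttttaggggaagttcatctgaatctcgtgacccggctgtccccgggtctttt
Irf2bpl: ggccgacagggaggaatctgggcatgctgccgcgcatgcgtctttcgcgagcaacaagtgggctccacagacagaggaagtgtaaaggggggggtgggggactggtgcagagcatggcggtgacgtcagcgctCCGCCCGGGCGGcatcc

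The histone promoters above carried 3 or 4 CCAAT boxes and no GC box in these bases, and Irf2bpl, a transcriptional co-regulator gene, carried 2 GC boxes and no CCAAT box. Values below are given as the fold over the local background at the summit, as the authors' caller wrote it, and as a standing, the percentile rank of a region's highest peak by −log10 q within its own list. The region over H2ac7 and H2bc7 (999 bp) had folds of 6.44, 5.12 and 5.70 in f/f and 7.60, 7.85 and 7.98 in KO, and standings of 88.9, 86.9 and 89.9 in f/f and 80.5, 83.5 and 83.9 in KO. The KO libraries were thus the higher group by fold and the lower group by standing. Regions with such an order were not counted, and folds in KO replicates 1 and 2 were higher than in f/f by the median over the bins. The region over H3c6 had folds of 15.2, 11.6 and 13.2 in f/f and 15.9, 17.0 and 10.4 in KO, so that the groups overlapped. At Yif1a, an ER to Golgi transport gene, the standing was 97.6, 98.3 and 98.1 in f/f and 93.5, 95.8 and 90.3 in KO. Its folds overlapped, at 9.42, 8.45 and 8.94 in f/f and 8.82, 9.96 and 7.35 in KO. The region over the start of Cnih2, an AMPA receptor auxiliary subunit gene, had standings of 52.99 to 67.5 in the 5 libraries of the choice and no peak in KO replicate 3, and the other 7 promoters had a peak there.

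The motif searches covered both strands of all 19558 windows of 300 bases (250 before and 50 after the start), in 16034 protein-coding genes. A GC box was found in 46.9% of all windows, a CCAAT box in 38.2%, an ETS motif (CCGGAAG) in 11.9%, a RUNX motif (TGTGGT) in 14.8%, a TATA box (TATAAA) in 12.8% and an AP-1 motif (TGANTCA) in 7.10%. In the 100 bins, 437 windows of 336 genes were found among the 463 protein-coding genes, and 68.9% of them lay whole inside a shared region, against 49.8% of the windows outside. Among windows inside a shared region, a GC box was in 69.8% in the bins and in 70.5% outside, and a CCAAT box in 37.2% and 38.7%. An ETS motif was in 19.6% and 20.1%, a TATA box in 5.32% and 5.47%, and an AP-1 motif in 4.65% and 4.80%. A RUNX motif was in 15.6% (47 of 301 windows) and 11.2%, and this difference was not tested. A match is a description of the letters and not a bound site.

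Most of the genome had few shared regions per 100 kb, and the chosen bins form the upper end of 1 continuous range. Of 12437 bins with 1 or more shared region, the median bin had 3. The chosen bins had 12 to 24, with a median of 13. The lower limit cut through a tie, since 64 bins had 12 shared regions, of which 37 were chosen and 27 were left out, and 103 further bins had 11. The tie ended on chromosome 10, so bins with 12 on later chromosomes were left out. The chosen bins were 0.804% of all bins with a shared region and held 3.15% of the shared regions.

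**Figure D1:**
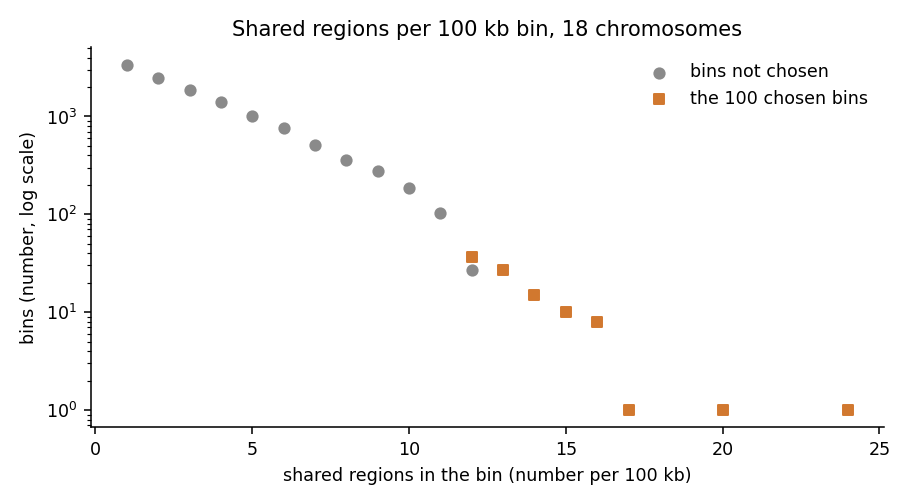
Number of 100 kb bins (log scale) against the number of shared regions in the bin, for chosen and other bins on 18 chromosomes. The chosen bins run from 12 to 24 regions, and at 12 both kinds of bin are present because of the tie.

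By chromosome, 2, 5 and 7 had 11 chosen bins each, chromosome 11 had 10 and chromosome 1 had 9. Of the bins with a shared region these were 1.02%, 1.25%, 1.41%, 1.20% and 0.930%, against 0.804% on all 18 chromosomes. Chromosomes 16 and 18 had none, of 500 and 448 such bins. The tie at 12 ended on chromosome 10, so later chromosomes needed more than 12 shared regions and the counts do not rest on 1 threshold. Dense bins were often near each other, since 44 of the 100 lay within 1 Mb of another and 14 touched another. The most crowded 2 Mb were chr10:79900001-81900000, with 6 chosen bins and 81 shared regions, and chr2:30800001-32800000, with 5 bins and 61 shared regions. Bins beside a chosen bin had a median of 7 shared regions.

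The densest bin, chr11:3100001-3200000, lies near the start of the assembled sequence of chromosome 11 and holds 1 protein-coding gene, Sfi1, which encodes a centrosome protein, and 3 pseudogenes. It held 34 regions, 24 of them shared, and 22 of the 24 lay at Sfi1 or within 3 kb of it. The number of its regions with a peak was 27, 29 and 30 in f/f and 27, 24 and 28 in KO. KO replicate 3 was within the range of the other libraries here, at 102% of their mean, against a median of 69.4% over the 100 bins. No other chosen bin reached that percentage. The regions were weak by fold. The median over shared regions of the mean fold in the 5 libraries was 2.09, the lowest of the 100 bins, and 17 of the 24 had a mean fold below 3, with mean standings from 12.6 to 51.9. Of those 17, 15 had a peak in KO replicate 3. In the same bin, 1 region at chr11:3122912-3124071, 7.78 kb outside Sfi1, was among the strongest of all, with folds of 19.1, 13.3 and 16.7 in f/f and 21.4, 19.4 and 13.3 in KO.

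The next densest bin, chr6:114500001-114600000, was of the opposite kind in KO replicate 3. It overlaps no annotated gene and lies 16.7 kb from Hrh1, a histamine receptor gene, and 43.1 kb from Atg7, an autophagy gene. It held 39 regions, the most of any chosen bin, of which 20 were shared. Regions with a peak numbered 27, 28 and 33 in f/f and 31, 26 and 6 in KO, so that KO replicate 3 was far below the other 5. Only 5 of its 20 shared regions (25%) had a peak in KO replicate 3, the lowest share of the 100 bins. Its median mean standing of 36.9 was also the lowest. The regions followed each other at short steps, with a median of 2.33 kb between the centres of neighbours, and 25 of the 38 gaps were between 1.5 and 3 kb. The bins before and after it had 6 and 8 shared regions. With every list cut to its 32958 strongest peaks, the chromosome 6 bin kept 2 shared regions and the Sfi1 bin 6.

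**Figure D2:**
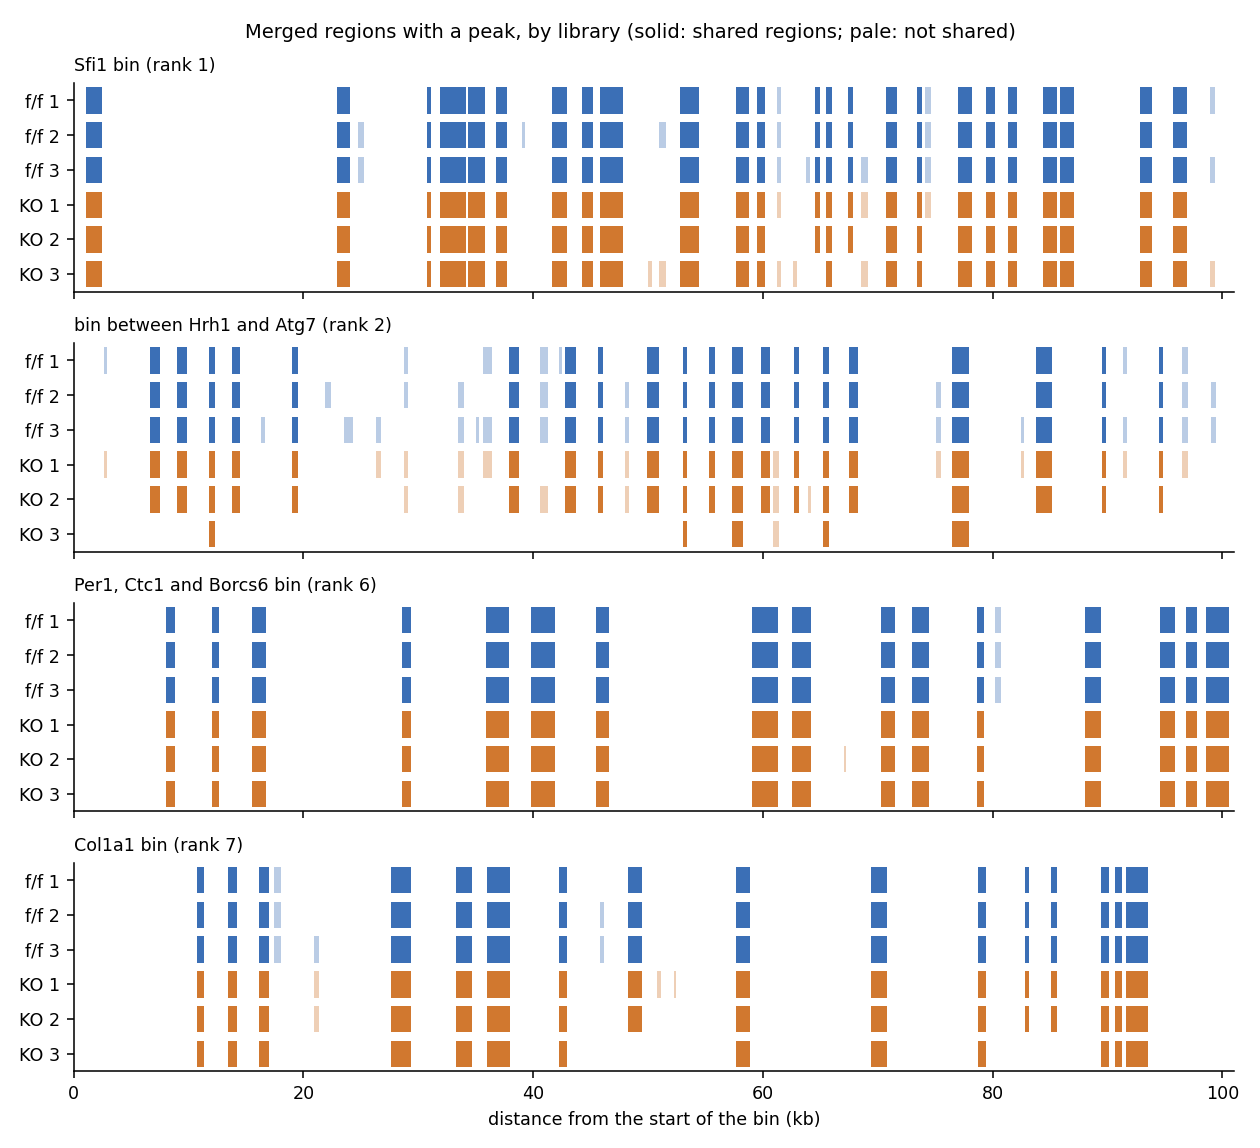
Regions with a peak in each library along 4 dense bins, in kb from the start of the bin, with shared regions solid and other regions pale. KO replicate 3 keeps 22 of 24 shared regions in the Sfi1 bin and 5 of 20 in the bin between Hrh1 and Atg7.

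The third densest bin, chr11:117900001-118000000, had 17 shared regions. It holds Socs3, an inhibitor of cytokine signalling, and Pgs1, an enzyme of cardiolipin synthesis, but 13 of the 17 lay between genes. Here and below, between genes means over 1 kb outside every protein-coding gene, and non-coding genes are not considered. Counts of regions with a peak were 18, 19 and 20 in f/f and 17, 20 and 16 in KO. The 2 shared regions at Socs3 had mean standings of 95.0 and 97.3.

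Bins with 16 shared regions numbered 8. At chr8:84900001-85000000 the leading genes were Mast1, a kinase gene, Prdx2, a peroxiredoxin gene, and Rnaseh2a, the catalytic subunit of RNase H2, with 5 other protein-coding genes. All 3 shared regions at Junb, an AP-1 factor gene of that bin, had a peak in KO replicate 3, against 2 of the 5 at Mast1. The median mean standing in the 5 libraries of the choice was 70.5 at Junb and 55.9 at Mast1. At chr10:80100001-80200000 the leading genes were Sbno2, Cirbp, which encodes a cold-inducible RNA-binding protein, and Cbarp, with 5 others. At chr11:69000001-69100000 they were Ctc1, of the telomere-protecting CST complex, the circadian gene Per1 and Borcs6, a lysosome-positioning gene. That bin also held 4 other protein-coding genes and 11 tRNA genes, its counts were 17, 17 and 17 in f/f and 16, 17 and 16 in KO, and 16 of its 16 shared regions had a peak in KO replicate 3.

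The collagen bin, chr11:94900001-95000000, holds Col1a1, the gene of the main collagen chain of bone, with Ppp1r9b, which encodes spinophilin, Sgca, which encodes alpha-sarcoglycan, and 1 other. Its 16 shared regions included 10 between genes, and 4 lay at Col1a1 with mean standings from 8.32 to 80.1. Regions with a peak numbered 17, 18 and 19 in f/f and 19, 17 and 13 in KO, and 13 of the 16 shared regions had a peak in KO replicate 3.

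Histone genes filled chr13:23500001-23600000. All 15 protein-coding genes of that bin are replication-dependent histone genes, led by H2ac10, H2bc7 and H2ac7, and 13 tRNA genes lie to one side of them. Of its 16 shared regions, 11 were at gene ends and 14 had a peak in KO replicate 3, and the counts were 18, 19 and 19 in f/f and 17, 17 and 14 in KO. At chr12:86800001-86900000, by contrast, Irf2bpl was the only protein-coding gene, and 13 of the 16 shared regions lay between protein-coding genes. That bin also holds 4 long non-coding RNA genes, of which Gm51955 overlapped 4 shared regions. The pair of bins on chromosome 19 were chr19:5000001-5100000, led by Slc29a2, a nucleoside transporter gene, Brms1 and Rin1, a Ras effector gene, with 7 others, and chr19:5800001-5900000, led by Frmd8, Slc25a45, a mitochondrial carrier gene, and Tigd3, with 1 other. The latter also holds the long non-coding RNA genes Malat1 and Neat1, named here after their values were seen, which overlapped 1 and 3 shared regions. Their median mean folds were 6.401 and 3.02, and in that bin 7 of 16 shared regions had a mean fold below 3.

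Bins with 15 shared regions numbered 10, of which 9 are among the 20 densest. Their leading genes were Csrp1, Tnni1 and Phlda3 on chromosome 1, Col5a1 on chromosome 2, Isg20l2, Bcan and Hdgf on chromosome 3 with 4 others, Agap3, Cdk5 and Slc4a2 on chromosome 5 with 4 others, and Gm40363 and Pdia4 on chromosome 6. The rest were led by Amotl2, a YAP-binding scaffold gene, on chromosome 9, and on chromosome 11 by Lif, Tbc1d10a and Castor1 with 1 other, by the nuclear receptor gene Thra, Med24 and the circadian repressor gene Nr1d1 with 2 others, and by Baiap2 and Chmp6. Around Lif, a cytokine gene of the interleukin 6 family, 6 shared regions had mean standings from 23.8 to 70.3. Agap3 had 8 shared regions and Baiap2, an actin-regulating scaffold gene, had 9.

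The bins were rich in genes. They overlapped 4.70 ± 3.12 protein-coding genes (SD, n = 100 bins), against 1.80 ± 1.67 in the 12337 other bins with a shared region. Bins with 5 or more genes were 42.0% of the chosen and 6.51% of the others. A few dense bins were gene-poor, since 12 had 0 or 1 protein-coding gene. The 5 densest of these were the bins of Sfi1, of no gene on chromosome 6, of Irf2bpl, of Col5a1 and of Amotl2. The other 2 bins with no protein-coding gene were chr1:191200001-191300000 and chr2:167700001-167800000. The first, with 12 shared regions, lies 16.7 kb from the stress-response factor gene Atf3 and 6.79 kb from Nenf. The second, with 12 shared regions, lies 9.57 kb from Cebpb, a C/EBP factor gene. Both are named after their values were seen.

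By place, 29.9% of the shared regions of the bins lay within 1 kb of an end of a protein-coding gene, against 25.9% of the 41368 shared regions outside. Gene bodies held 39.1% and 38.7%, and 31.0% and 35.4% lay between genes. The class over 3 kb from any gene was smaller in the bins, at 15.8% against 21.7%. The shared regions of the bins were no wider, with a median of 949 bp against 957 bp.

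In KO replicate 3, which the choice did not use, 1019 of the 1344 shared regions (75.8%, exact 95% binomial interval 73.4 to 78.1) had a peak. Outside the bins the share was 62.9% (62.4 to 63.3). The intervals cover counting error only, and all regions of a library share its depth, so no test was made. At gene ends the shares were close, at 90.3% (87.0 to 93.0) in the bins and 88.9% outside. In gene bodies they were 69.5% (65.4 to 73.4) and 54.2%, and between genes 69.8% (65.1 to 74.2) and 53.3%. Weighted to the places and standings of the regions in the bins, the share outside was 67.0%, against 75.8% in the bins.

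Standing in the other 5 libraries moved with the share. All shared regions were put into 10 classes of equal size by mean standing, from 1 (weakest) to 10. In class 3, 55.0% (45.2 to 64.4) of the regions in the bins and 28.3% outside had a peak in KO replicate 3, and in class 5 it was 74.6% (66.4 to 81.7) and 58.4%. In classes 8 to 10, 100% of the regions in the bins and at least 99.1% outside had one, which left no room for a contrast there. Without the Sfi1 bin and the bin between Hrh1 and Atg7, an alternative chosen after seeing the data, the share in the bins was 76.3%.

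**Figure D3:**
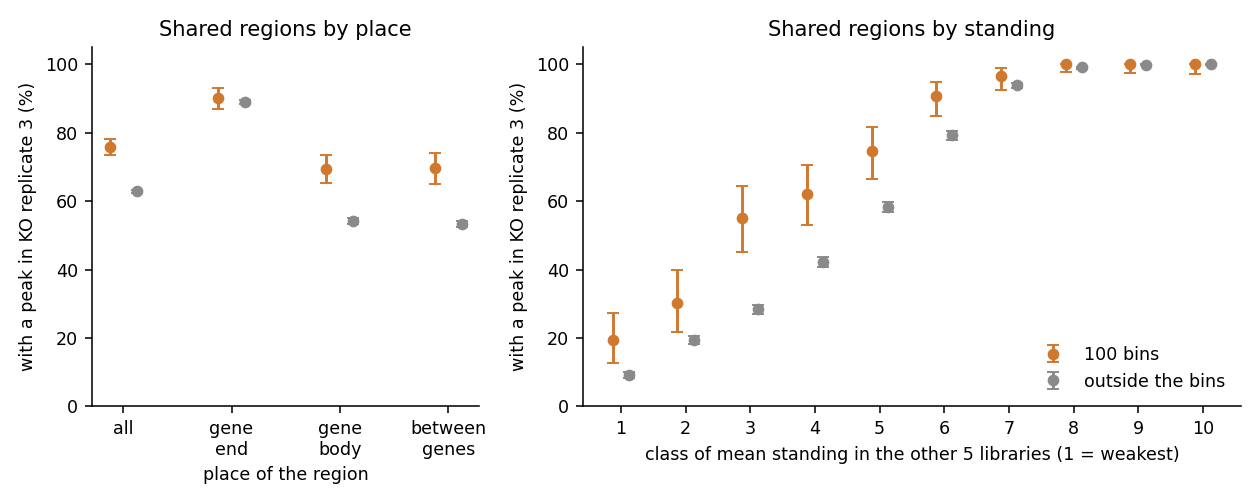
Percent of shared regions with a peak in KO replicate 3, by place and by class of mean standing in the other 5 libraries, with exact 95% binomial intervals. The bins lie above the rest of the genome from class 1 to 6 and in gene bodies and between genes, and close to it at gene ends.

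Among bins the share ran from 25% to 100%, with a median of 76.9%. After the bin on chromosome 6, the lowest were the bins of Angpt4, Fam110a and Slc52a3 (5 of 12), of Epop, Mllt6, Cisd3 and Pcgf2 (7 of 14), of Rassf5, Ikbke and Srgap2 (6 of 12) and of Csrp1, Phlda3 and Tnni1 (8 of 15). In the last of these, 0 of the 4 shared regions at Tnni1, the gene of slow skeletal troponin I, had a peak in KO replicate 3, against 4 of the 5 at Csrp1, a LIM-domain gene of smooth muscle and fibroblasts. The median mean standing, with which the share moved, also differed, at 54.1 for Tnni1 and 79.3 for Csrp1. All shared regions had a peak in 3 bins, those of Per1 and Ctc1 (16 of 16), of Fosb, Ercc1, Cd3eap, Ppp1r13l, Ercc2 and Klc3 (13 of 13) and of a stretch with Mast3, Il12rb1, Arrdc2, Kcnn1, Ccdc124 and Slc5a5 (12 of 12). Next came the bins of Socs3 and Pgs1 (16 of 17) and of Brms1, Rin1, Slc29a2, Yif1a, Npas4, B4gat1, Cd248, Tmem151a, Cnih2 and Rab1b (15 of 16). By gene content the share was 82.0% (78.6 to 85.1) in the 42 bins with 5 or more genes, 72.6% (69.3 to 75.8) in the 55 bins with 1 to 4 and 50.0% (34.6 to 65.4) in the 3 bins with none. Median standing followed the same order, at 72.9, 62.1 and 48.7.

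The fold over the local background was lower in the bins. The median of the mean fold was 6.21 in the bins and 8.45 outside. The mean standing in the 5 libraries of the choice had the other order, with medians of 66.1 in the bins and 62.7 outside. In KO replicate 3 the median standing was 52.5 in the bins and 54.1 outside. The order by fold was the same in each library. In f/f it was 6.36, 5.09 and 5.96 in the bins against 8.73, 6.77 and 8.70 outside. In KO it was 6.75, 6.72 and 4.88 against 9.01, 9.15 and 6.13. Within each of the 10 classes of standing the median fold was lower in the bins, at 5.84 against 8.86 in class 5 and 11.1 against 13.6 in class 10. Regions with a mean fold below 3 were 6.25% of the shared regions in the bins and 0.969% of those outside, and they occurred in 48 of the 100 bins. The caller takes the background from DNA around each peak, and its part in this difference was not tested.

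**Figure D4:**
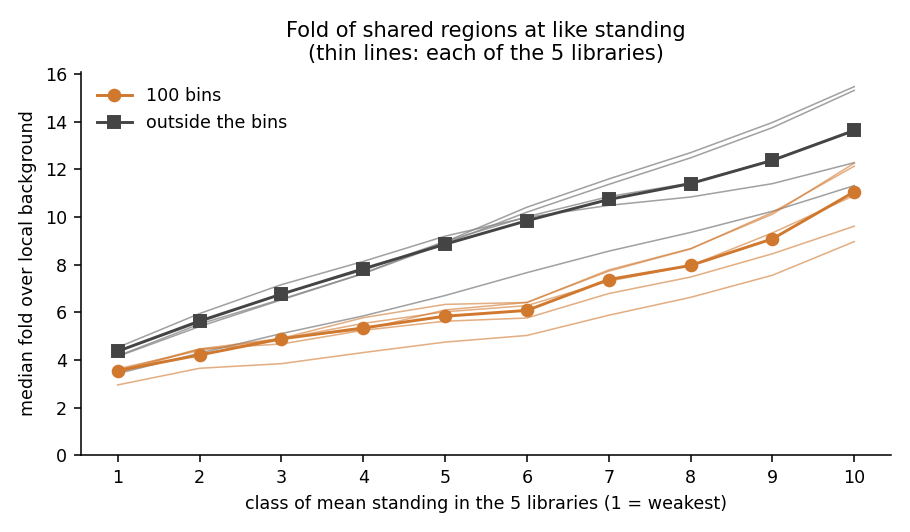
Median fold over the local background of shared regions by class of mean standing in the 5 libraries of the choice, with thin lines for each library. The bins lie below the rest of the genome in every class, at 5.84 against 8.86 in class 5.

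The values of the bins in f/f and KO are given by library as a description, with no test, since 5 of the 6 libraries chose the bins. The number of their regions with a peak was 1479, 1485 and 1613 in f/f and 1554, 1536 and 1048 in KO. KO replicate 3 was low, and KO replicates 1 and 2 lay within the range of f/f. The means were 1526 ± 75.7 and 1379 ± 287 (SD, n = 3 and 3). Without KO replicate 3 the KO mean was 1545 ± 12.7 (n = 2), higher than f/f by 19.3 regions.

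As a share of all peaks of a list, the bins held 2.68%, 2.69% and 2.43% in f/f and 2.83%, 2.73% and 3.71% in KO. In the lists as deposited the groups did not overlap, with KO higher by 0.494 percentage points on average. KO replicate 3 made most of this, and without it the difference was 0.184 points. With a −log10 q minimum of 5 the difference was 0.461 points, and with equal numbers of peaks from each list 0.159 points. In both of these settings the groups overlapped. The shorter list of KO replicate 3 moved with its higher share. Median standing of the shared regions was 65.4, 65.5 and 70.1 in f/f and 66.6, 66.4 and 52.5 in KO, a difference of −5.16 percentile points between the means. Without KO replicate 3 the difference was −0.48.

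**Figure D5:**
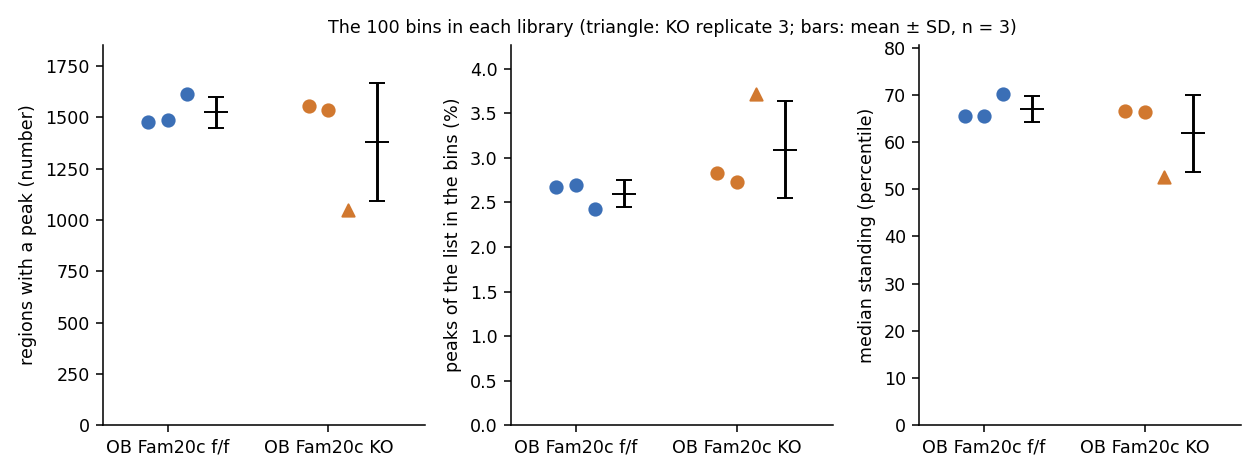
Number of regions of the 100 bins with a peak, percent of the peaks of each list in the bins and median standing of the shared regions, by library, with mean ± SD (n = 3 per group). KO replicate 3 (triangle) stands apart at 1048 regions, 3.71% and 52.5.

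Regions found in only 1 group were few. A peak in 3 of 3 f/f and 0 of 3 KO libraries was found in 17 of the 1785 regions (0.952%), against a background of 3.96% of all 79259 regions. A peak in 3 of 3 KO and 0 of 3 f/f libraries was found in 2 (0.112%), against a background of 0.17%. The choice of bins with many regions shared between groups lowers such counts, so nothing is read from these shares. Within the 441 regions of the bins that were not shared, f/f-only regions were 3.85% (2.26 to 6.10), against 8.64% of the 36106 such regions outside. Chromosomes 4, 13 and 16 hold f/f-only regions at a higher rate, and without them the shares were 3.68% in the bins and 7.39% outside. The f/f-only count was 31 to 35 when f/f replicate 1 or 2 or KO replicate 1 or 2 was left out and the regions were merged again, which is 1.77% to 1.98% of the regions of the bins against 5.76% to 6.41% of all regions. KO replicate 3 decided the KO-only count, which was 34 without it (1.91%, against 2.88% of all regions) and 7 without f/f replicate 3 (0.399% against 0.366%). With all 6 lists merged, a peak in KO replicates 1 and 2 and in 0 of 3 f/f was found in 34 regions (1.90%, background 2.86%), while a peak in 3 of 3 f/f and in neither KO replicate 1 nor 2 was found in 17 (background 3.99%).

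The 17 f/f-only regions lay in or nearest to 16 genes. The region 18.2 kb from Col1a1, at chr11:94917478-94918071, had standings of 50.9, 48.4 and 56.3 in f/f. Others of similar standing lay near Nfic, a nuclear factor I gene (60.2, 46.9 and 57.2), in H2bc6 (43.9, 41.7 and 54.6), near the cell cycle factor gene E2f2 (50.2, 42.3 and 45.4), in Brms1 (46.0, 41.3 and 37.3) and near Tspan32 (48.9, 36.7 and 37.2). The rest lay at or near Tmem107, Irf2bpl (2 regions), Slc25a45, Hdgf, Lif, Celf5, Hoga1, Tmem63a, Cebpb and Sbno2. Both KO-only regions lay between genes. That nearest to Irf2bpl, 11.6 kb away, had standings of 41.1, 46.0 and 20.7 in KO, and that nearest to Hrh1, 77.6 kb away, had 15.9, 16.2 and 10.98. The bin of Irf2bpl thus held both kinds, with 2 f/f-only and 1 KO-only region.

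Genes of lists relevant to osteoblasts were then looked up in the bins, beside the 2.33% of all 19885 protein-coding genes that overlapped them. From the bone matrix list, 2 of 25 genes did, Col1a1 and Col5a1, a fibrillar collagen gene. The AP-1 list gave 2 of 10, Fosb and Junb. From the TGF-beta and BMP list, the genes in the bins included the signal transducer Smad3, its repressor Ski, the inhibitor of differentiation Id3 and the latent TGF-beta binding protein Ltbp3. The mesenchymal factor list gave 3 of 39, Snai1, Prrx2 and Rara, and the ribosomal protein list 3 of 25, Rpl18, Rplp2 and Rps18. The actin and adhesion list gave 2 of 27, Cnn2 and Lmna, the calpain list 1 of 7, Capn5, and the Hippo list 1 of 14, Amotl2. None came from the lists of osteoblast transcription factors (of 14), Wnt pathway (of 35), growth factor signalling (of 19), cell cycle (of 16) or the selected histone genes (of 10), the last being other genes than those of the histone bin.

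Of the 19 list genes in the bins, 16 had a promoter window, and all 16 had a peak over a start site in 6 of 6 libraries. The bins were chosen for peaks in 5 of these libraries. In KO replicate 3, 90.3% of the shared regions at gene ends in the bins and 88.9% outside had a peak. Nothing particular to the list genes is read from this count. Rara, the retinoic acid receptor alpha gene, had 11 shared regions in its bin with mean standings from 32.0 to 83.3, and 10 of them had a peak in KO replicate 3. Smad3 had 10, with standings from 16.01 to 95.9, and 9 in KO replicate 3. Capn5, a calpain protease gene, had 10, with standings from 12.6 to 97.6, and 8 in KO replicate 3. Lmna, the lamin A/C gene, crossed 2 touching bins with 4 and 3 shared regions, and all 7 had a peak in KO replicate 3. Fosb had 3 of 3, Prrx2, a limb mesenchyme factor gene, 4 of 4, and Ski 3 of 5. Col5a1 had 1 of 3 in KO replicate 3, and Amotl2 5 of 5.

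The strongest shared regions of the bins were narrow by the measure of the widest. The highest mean standing, 99.3, was that of a region of 833 bp at chr6:47757641-47758473, 19.3 kb from Gm40363, with folds of 21.2, 15.7 and 18.7 in f/f and 23.2, 22.2 and 15.2 in KO. Next came a region over ends of both Cdk5, a kinase gene, and Slc4a2 (folds of 7.06 to 9.89). It was followed by regions at Mbd3, a subunit gene of the NuRD complex (7.67 to 11.3), and over ends of both Pcsk4, a proprotein convertase gene, and Reep6. The others of the 10 lay near Sfi1, Myo1h, Ap5z1, Tssc4, Gm40363 again and Daxx, a histone chaperone gene. All 10 had a peak in KO replicate 3, as had all regions of class 10 of standing, in the bins (130 of 130) and outside (4142 of 4142). Nothing is read from that count.

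The widest region, of 4053 bp, lay in Plekho1, with a mean standing of 55.6. The region of 3929 bp over the start of Col5a1 had folds of 4.03, 4.26 and 4.01 in f/f and 6.64, 6.86 and 5.35 in KO, and standings of 67.2, 77.8 and 75.7 in f/f and 86.4, 87.5 and 72.7 in KO. The KO folds were all above those of f/f, and the standings overlapped because of KO replicate 3. Median folds of all shared regions of the bins were 6.36, 5.09 and 5.96 in f/f and 6.75, 6.72 and 4.88 in KO. Higher folds in KO replicates 1 and 2 were thus not particular to this region, and regions with such an order were not counted. At Tmem259 the region of 3391 bp had standings of 87.8, 89.9 and 89.4 in f/f and 83.6, 87.3 and 81.0 in KO. Its folds overlapped, at 5.56, 5.00 and 5.03 in f/f and 5.45, 5.87 and 5.13 in KO. The other wide regions lay at Gnat1, Mex3d, Ifitm3, Msl1, St6galnac6, Ptges, the prostaglandin E synthase gene, and 56.6 kb from Col5a1. The last of these, of 2786 bp, had standings of 42.0, 32.0 and 52.6 in f/f and 29.6 and 23.8 in KO replicates 1 and 2, and no peak in KO replicate 3. Its folds overlapped, at 6.14, 3.96 and 6.75 in f/f and 4.56 and 4.02 in KO replicates 1 and 2.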

How the data were processed

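The authors trimmed the reads (Trimmomatic), aligned them to mm10 (BWA) and called peaks for each library (MACS2 2.1.2, q-value below 0.05). Each deposited list gives a score, a fold (a linear ratio over the local background), a −log10 p and a −log10 q for every peak. Only the fold and the −log10 q were used. How duplicate reads and blacklisted regions were treated is not given in the sources used here. The lowest −log10 q in each list was 1.30 to 1.34. The authors compared groups by read counts, which were not used here, so a missing peak means only that a threshold was not passed, and no fold change between groups was computed.

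Peaks on chromosomes 1 to 19 without 15 were merged where they shared 1 bp. Bins, shared regions, standing and group-only regions are as defined in the results. The folds and standings of a region are those of its highest peak in each list, and its mean fold and mean standing are means over the 5 libraries of the choice. Groups came from the sample labels. Library values are given as mean and SD with no p, because the choice of bins used 5 of the 6 libraries, and shares have exact binomial intervals at 95%, for counting error only. Gene spans came from RefSeq GRCm38.p6, without exons or strand, and promoter windows from a table that covers part of the genes and no gene of chromosome 18. A gene had a region where the region overlapped its span extended by 3 kb, within the bin.

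The members, the gene lists and the motifs were chosen with earlier results of these data known. The genes named were up to 3 per bin in the 20 densest bins, all list genes in the bins, the genes of the 5 bins at each end of the share in KO replicate 3, those of the 5 densest bins with 0 or 1 gene, those nearest to the 10 strongest and 10 widest shared regions and to group-only regions, and 8 promoters. Some genes that this rule takes are not reported here. Printed promoter bases were limited to those outside gene spans after the windows were seen. Alternatives were each library left out, the replicate number as a block, lists cut to 32958 peaks each, a −log10 q minimum of 5, an overlap of 50%, a peak in 2 of 3 libraries, other bin sizes and other ways to rank bins. The steps were tested on simulated lists. The tools were scipy 1.17.1, pandas 2.3.3, matplotlib 3.10.9 and numpy 2.4.6 under Python 3.11.15.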

Additional observations from a re-analysis of the deposited data

How the results depend on the processing

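The share of shared regions with a peak in KO replicate 3 was 71.7% with peaks of −log10 q of 5 or more (58.8% outside the bins) and 95.1% with the same number of peaks from each list (90.5% outside). It was 73.7% to 75.6% with an overlap of 50% or other bins, and 74.5% with all 127 bins at or above 12. The difference in regions with a peak, −146 with all libraries, ran from −233 to 19.3 with 1 library left out, turning positive without KO replicate 3, and was 25.3 with equal numbers of peaks. The f/f-only count of 17 ran from 17 to 35 with 1 library left out (35 and 32 without f/f replicates 1 and 2, 34 and 31 without KO replicates 1 and 2) and was 52 with a peak in 2 of 3 libraries (2.91% of the regions of the bins, 8.91% of all). The KO-only count of 2 ran from 2 to 34, with 34 without KO replicate 3 and 7 without f/f replicate 3, and was 4, 28 and 34 with the higher −log10 q (0.242% against 0.117% of all regions), equal numbers (2.31% against 2.58%) and 2 of 3 libraries (1.90% against 2.92%).

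Of the 100 bins, 61 were chosen again from regions with a peak in all 6 libraries, 73 from the 3 f/f libraries, 66 from KO replicates 1 and 2, 47 with equal numbers of peaks, 62 by base pairs covered and 84 to 93 with 1 of the 5 libraries left out. With ties taken by chromosome name as text, chosen after seeing the data, 73 remained. Equal numbers of peaks changed the count of shared regions in each of the 20 densest bins by more than the spread between libraries. The Sfi1 bin went from 24 to 6 and the bin between Hrh1 and Atg7 from 20 to 2. The Socs3 bin went from 17 to 15, so the order of the densest bins depends on weak peaks.

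Same-numbered libraries did not deviate together over shared regions (r = −0.08, −0.21 and −0.37), so no pairing by number was seen. Deviations from means of 3 libraries per group cannot exclude one. With the replicate number as a block, the differences were the same by construction, at −146 regions, 0.494 points for the share of peaks and −5.16 for standing, and no p is given since the choice used these libraries.

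The short list of KO replicate 3 limits every statement on regions it lacks, and low-fold regions in the Sfi1 bin and the tie at 12 limit the list of bins.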

Other observations

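The bins also held 21 microRNA genes, named after their values were seen, and 6 of these overlapped a shared region: Mir2861, Mir3960, Mir7011, Mir707, Mir6936 and Mir6939. Mir2861 and Mir3960, a microRNA pair known from osteoblast differentiation, lie beside each other at chr2:32712807-32712888 and chr2:32712900-32712972. The gene Cdk9, at chr2:32705782-32712784, ends just before them. A shared region over the pair thus also lies at Cdk9 and cannot be assigned to the microRNA genes. Mir126a, an endothelial microRNA gene, lay in a bin of chromosome 2 and overlapped no shared region.

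Among the regions of the bins that were not shared, 40.1% had a peak in 1 library only, close to 39.7% of such regions outside. The largest single part was f/f replicate 3, with 60 regions of its own, whose list was the longest, and the smallest was KO replicate 3, with 7. Regions that were not shared lay at gene ends in 11.1% in the bins and in 6.48% outside.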
